A study of Mus musculus with 9 samples.

Results

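Macrophages that had migrated in a Transwell co-culture with carcinoma cells (group M) were compared with macrophages cultured alone (group Ctrl). The comparison took the arrays titled M1 to M3 and Ctrl1 to Ctrl3, which are 6 of the 9 arrays of the study. All cells were peritoneal macrophages of male mice, isolated by flow sorting for CD45+ F4/80+, and their total RNA was measured on Agilent 1-colour arrays. Ctrl was kept in regular medium for 24 h. M was taken from the upper chamber of a Transwell, a well divided by a porous membrane, after co-culture with CT-26, which is a colon carcinoma line of the mouse; the sources used here do not give the length of this co-culture. The remaining group, T, shared a 24 h co-culture with CT-26 cells in the lower chamber. The titles, descriptions and agent labels place the migratory cells in M, whereas the cell type label gives that name to T; the groups follow the titles. No source used here gives the strain or age of the mice, or says that replicate arrays stem from separate animals or cultures, so the p-values measure only the spread among these 3 arrays per group, and that spread may be technical. M differs from Ctrl in both the presence of carcinoma cells and in migration, and these cannot be told apart in this comparison.

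Peritoneal macrophages are resident phagocytes of the abdominal cavity that clear dying cells and microbes and are identified by surface F4/80, CD45 and CD11b. Macrophages near tumours are known to secrete chemokines and growth factors and to degrade matrix with cathepsins and metalloproteinases. Osteoclasts belong to the same lineage: they fuse, pump protons into a sealed space on bone and digest it with cathepsin K, under the transcription factor NFATc1.

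A level is given here as log2 of the processed signal of a gene's probe minus the 75th percentile of its array, so that 0 is the brightness of the probe at that percentile. Levels of different genes rest on different probes and were not set against each other. A difference is M minus Ctrl on this log2 scale with its moderated SE, with n = 3 arrays per group throughout. Of 18067 named genes tested, 1137 (6.29%) were higher in M and 466 (2.58%) lower at an adjusted p of 0.05, and 1044 (5.78%) and 389 (2.15%) changed at least 2-fold in these directions. Counts past a fold use the fitted difference, also for genes at background in one group. For 36.1% of the genes all arrays of one group lay beyond all of the other (M above for 16.3%, below for 19.8%), and 387 genes rose and 73 fell at least 4-fold. The middle of all genes lay at -0.10, with 5% of genes below -1.30 and 5% above 1.25. When each array was scaled to its median this middle moved to 0.20 and 83.5% of calls were higher, against 70.9% here; with quantile normalization the share was 83.0%. Fold sizes depended on the background correction: with normexp (offset 50) in place of the scanner's own, 50 of the 140 called genes named by rule had differences smaller by over 1.5 times, 4 calls ended, and for 16 of the 18 with a bound the difference was below that bound. A bound written as at least N-fold therefore refers to the scanner's own correction. The normexp value is printed beside only some of these 50 genes, so a difference given without one may also be smaller with normexp.

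The arrays were not equally alike. Ctrl1 and Ctrl2 correlated at 0.991 across genes, Ctrl3 correlated at 0.968 with Ctrl1, at 0.981 with Ctrl2 and at 0.976 with M2, and the M arrays correlated at 0.989 to 0.992 with each other. Probes well above background made up 69.98% to 78.7% on the Ctrl arrays and 60.5% to 66.6% on the M arrays, and all 6 arrays lay on 1 slide. Without Ctrl3, 2948 genes were called higher and 3459 lower. Without Ctrl1, Ctrl2, M1 or M3 the counts were 728 and 177, 592 and 107, 631 and 124, and 611 and 115; without M2 they were 891 and 505. For each gene list the counts are therefore also given without any array whose removal changed them by over 1.5 times, or from 0. The counts of every list are to be read beside the shares of all named genes, 6.29% higher and 2.58% lower. A gene dim in Ctrl was tested only where all M arrays measured it well above background, and the reverse.

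**Figure D1:**
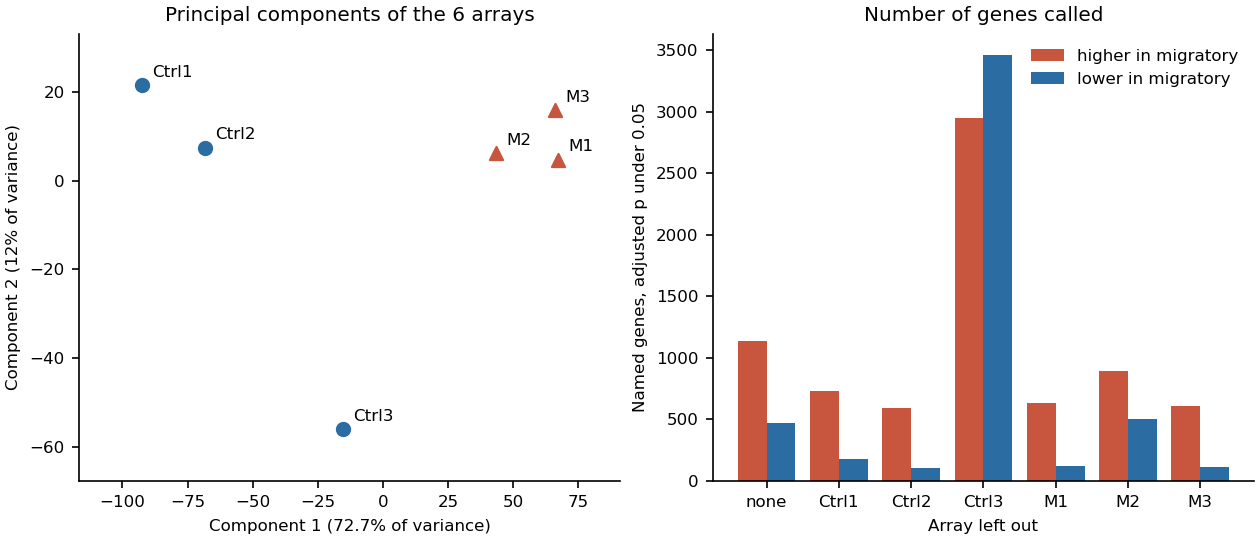
Left, the 6 arrays on the first 2 principal components of the levels of the tested genes, which held 72.7% and 11.96% of the variance; Ctrl3 lies at -56.0 on the second component, away from the other 5 arrays. Right, bars count the named genes called higher or lower in M with all 6 arrays and with each array left out; the counts without Ctrl3 are the only ones above those with all arrays in both directions.

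The largest fitted rise belonged to Ctsk, which encodes cathepsin K, a collagen-degrading cysteine protease. Ctsk had levels of -8.35, -8.68 and -7.98 on Ctrl1 to Ctrl3 and 2.89, 3.05 and 3.37 on M1 to M3. No Ctrl array measured its probe well above background, and the groups were far apart, so the fold is a bound: at least 772-fold higher in M (adjusted p = 9.04e-07). With normexp the difference was 7.66, or 202.7-fold, which is below that bound. In bulk samples such as these, more cells of a type and more RNA per cell cannot be told apart. The probe lies at chr3:95313165-95313224 on build mm9. Atp6v0d2 had levels of -7.24, -7.08 and -7.29 on Ctrl1 to Ctrl3 and 0.84, 1.02 and 0.85 on M1 to M3. This gene, for a subunit of the proton pump's membrane sector that macrophages use in osteoclast fusion, was at least 168-fold higher (adjusted p = 9.1e-07), and its M arrays lay close together; the fitted fold was 64.0 with normexp. Slc9b2, which encodes a sodium and proton exchanger, rose by 8.15 ± 0.26 (adjusted p = 4.72e-06) and was well above background on 1 Ctrl array. Tfec, a transcription factor gene of the MiT/TFE family, was at least 34.8-fold higher (adjusted p = 1.23e-05), and its fitted fold was 15.5 with normexp.

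The other genes among the 12 largest fitted rises came from several functions. Adh7, an alcohol and retinol dehydrogenase gene, rose by 6.93 ± 0.28 (adjusted p = 9.65e-06), and Ppfibp2, for a liprin scaffold protein, by 6.87 ± 0.29 (adjusted p = 1.23e-05). Ccr1 had levels of -8.39, -8.11 and -5.87 on Ctrl1 to Ctrl3 and -0.33, -0.87 and -0.46 on M1 to M3. Ccr1, a receptor for inflammatory CC chemokines, therefore varied most on the Ctrl side, where Ctrl3 was highest and still below every M array; it was well above background on Ctrl3 alone of that group and rose by 6.90 ± 0.59 (adjusted p = 0.000295), or by 4.40 with normexp. Plpp3 (a lipid phosphate phosphatase), Thbd (thrombomodulin, an anticoagulant receptor), Cavin3 (a caveola protein) and Sema7a (a membrane semaphorin) had no Ctrl array well above background. They were at least 26.3-fold, 31.3-fold, 48.7-fold and 23.5-fold higher in M. With normexp their fitted folds were 11.1, 15.8, 18.4 and 10.1, below these bounds. Trem3, a DAP12-coupled receptor gene, rose by 6.45 ± 0.35 (adjusted p = 2.94e-05). All 12 rises kept their call in each alternative that tested them; requiring all 6 arrays well above background left out 10 of them. Genes at background in Ctrl have no measured order among themselves.

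**Figure D2:**
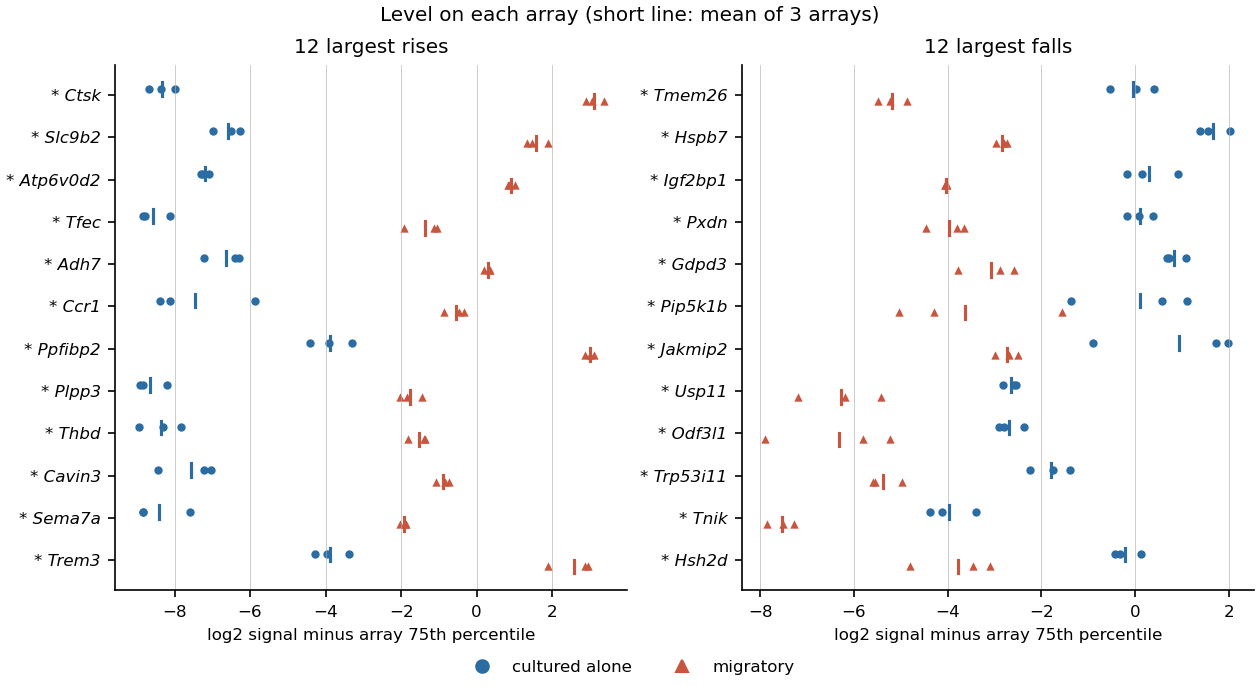
Levels of the 12 genes with the largest rises (left) and falls (right) on each array, in log2 units relative to the array's 75th percentile; circles are Ctrl arrays, triangles M arrays and short lines the means of 3 arrays. The groups do not overlap for any of the 24 genes, as the rule that chose them required; for Pip5k1b the lowest Ctrl array, at -1.36, and the highest M array, at -1.56, nearly meet.

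The largest fall belonged to Tmem26, which encodes a membrane protein. Tmem26 had levels of -0.53, 0.02 and 0.40 on Ctrl1 to Ctrl3 and -4.86, -5.23 and -5.48 on M1 to M3. The M arrays were all lower and close together, and the gene fell by 5.16 ± 0.29 (adjusted p = 3.5e-05), with a difference of -4.09 under normexp. Hspb7 had levels of 1.55, 1.38 and 2.04 on Ctrl1 to Ctrl3 and -2.97, -2.73 and -2.79 on M1 to M3. Hspb7, a small heat shock protein gene known from muscle, was well above background in both groups and fell 22.4-fold (adjusted p = 2.57e-05). Igf2bp1, an mRNA-binding protein gene, fell by 4.35 ± 0.29 (adjusted p = 7.38e-05), and Pxdn, for the basement membrane peroxidase peroxidasin, fell by 4.07 ± 0.28 (adjusted p = 8.06e-05; difference -3.22 over the mean of its probes). Gdpd3, which encodes a lysophospholipase D, fell by 3.91 ± 0.32 (adjusted p = 0.000248).

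The falls of Usp11 (a deubiquitinase, difference -3.62 ± 0.41), Odf3l1 (-3.62 ± 0.60), Trp53i11 (-3.58 ± 0.29) and Hsh2d (an adaptor protein, -3.57 ± 0.42) also passed, with adjusted p-values between 0.000214 and 0.0101. Usp11, Odf3l1 and Trp53i11 were each well above background on only 1 M array. With normexp they fell 4.27-fold, 4.24-fold and 6.09-fold. The call of Odf3l1 ended under quantile normalization (adjusted p = 0.063), and without M2 its difference was -2.83. Over the mean of its probes Trp53i11 differed by -2.71. Tnik, a kinase gene, had no M array well above background and was at least 3.06-fold lower (adjusted p = 0.000271). Jakmip2 had levels of 1.98, 1.73 and -0.90 on Ctrl1 to Ctrl3 and -2.69, -2.50 and -2.99 on M1 to M3. In Jakmip2 the Ctrl arrays themselves spread widely, with Ctrl3 nearest to M, and the difference of -3.66 ± 0.67 (adjusted p = 0.0158) did not pass without Ctrl2, M1 or M3 (adjusted p up to 0.0715) and was -4.58 without Ctrl3 and -2.28 over the mean of its probes. Pip5k1b, a phosphoinositide kinase gene, fell by 3.73 ± 0.92 (adjusted p = 0.0483), and this call ended without Ctrl1, Ctrl2, M1 or M3 (adjusted p up to 0.155), under quantile normalization, with no filter and with a trended, robust prior (0.0885, 0.0531 and 0.087); the difference was -3.03 without M1, -4.47 without Ctrl2 and -4.77 without M2. By the fitted difference 4 genes fell at least 16-fold and 88 rose as much. Of the calls that were lower, 146 had no M array well above background, and among the dimmest 3614 genes, 1 of 5 classes of brightness, 216 calls were higher and 216 lower, whereas lower calls made up 18.6% to 38.0% of calls in the other classes.

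**Figure D3:**
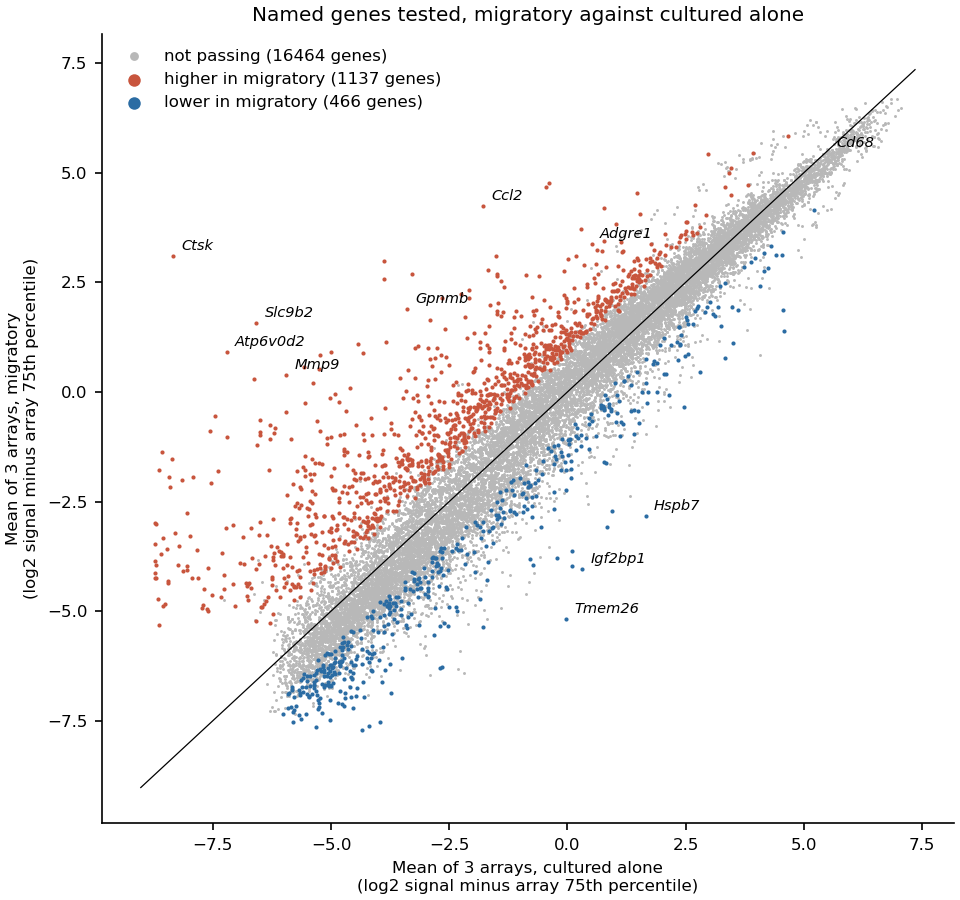
Mean level of each of the 18067 named genes in M (vertical) against Ctrl (horizontal), both in log2 units relative to the array's 75th percentile, with the line of equal levels. Genes called higher in M are red, genes called lower blue and the rest grey; the red points reach far above the line at low Ctrl levels, where Ctsk, at -8.34 in Ctrl, stands farthest off.

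Macrophage identity genes, which check the labelled cell type, were well above background on all 6 arrays for the 18 members tested. Of 18 tested members of that list, 4 rose, 0 fell and 14 did not pass, with a median difference of 0.57; without Ctrl3, 8 rose and 1 fell. Adgre1 had levels of 0.14, 0.41 and 0.997 on Ctrl1 to Ctrl3 and 3.28, 3.32 and 3.52 on M1 to M3. Adgre1, which encodes F4/80 and so 1 of the markers used in the sort, was higher on every M array and rose 7.26-fold (adjusted p = 0.000398), while its mean level in T was 0.61. Ptprc, which encodes the other sort marker CD45, differed by 0.80 ± 0.24 and did not pass (adjusted p = 0.0733). Its M arrays (0.89 to 1.397) all lay above its Ctrl arrays (0.12 to 0.67), as did those of 16.3% of all genes. Sirpa, the receptor for the CD47 signal that restrains phagocytosis, rose by 2.59 ± 0.22 (adjusted p = 0.000294), and Lyz2, the myeloid lysozyme, by 1.53 ± 0.23 (adjusted p = 0.00628).

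Other pan-macrophage genes differed less. The lysosomal glycoprotein gene Cd68 differed by -0.06 ± 0.22, the growth factor receptor gene Csf1r by -0.19 ± 0.22 and the DAP12 adaptor gene Tyrobp by -0.35 ± 0.24, and none passed. Itgam, which encodes CD11b, had levels of 6.17 to 6.94 in Ctrl and 5.57 to 6.24 in M, which overlapped (difference -0.67 ± 0.28, adjusted p = 0.126). Aif1, Lamp2, Cd14 and Spi1 lay higher on each M array than on each Ctrl array, by 1.08 ± 0.30, 0.80 ± 0.26, 0.66 ± 0.23 and 0.65 ± 0.26, without passing. Of all genes 16.3% lay higher on each M array in this way. Mertk, Fcgr1, Cebpa, Cebpb and Fcer1g differed by 0.49 ± 0.23, 0.47 ± 0.25, 0.36 ± 0.23, 0.15 ± 0.22 and 0.00012 ± 0.21 and did not pass, and Maf and Adgre4 were too dim to be tested.

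Of 24 genes known from large peritoneal macrophages 16 were tested, of which 4 rose, 0 fell and 12 did not pass; the median difference over those tested was -0.01, ranged from -0.08 to 0.64 over the alternatives, and was highest with no filter on dim probes, which took in all 24. Gata6, the transcription factor that defines this population, had levels of -2.73 to -2.65 in Ctrl and -2.81 to -2.43 in M and a difference of 0.06 ± 0.20. Timd4 and Vsig4, which are also used to define it, were at background on all 6 arrays. Pf4 had levels of -3.47, -3.61 and -2.75 on Ctrl1 to Ctrl3 and 2.93, 3.29 and 1.89 on M1 to M3. Pf4, a platelet-type chemokine gene also made by macrophages, was thus higher on every M array and rose by 5.98 ± 0.39 (adjusted p = 6.61e-05). Selp, which encodes P-selectin, rose by 2.34 ± 0.20 (adjusted p = 0.000295). Bhlhe40, a transcription factor gene, rose by 1.29 ± 0.21, a call that ended without Ctrl2 and without M3 (adjusted p up to 0.0611), and Icam2 by 1.03 ± 0.24, a call that held only with all 6 arrays or without Ctrl3 (adjusted p up to 0.180 otherwise). Without Ctrl2 or M3, 2 members rose, and without Ctrl3, 6 rose and 4 fell. The other 12 tested members ranged from -0.79 ± 0.24 (Ltbp1) to 1.04 ± 0.27 (Cd5l).

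Genes of osteoclast resorption and fusion included 4 of the 12 largest fitted rises. The list was chosen with earlier results of these data known, so this overlap is a description only. Of 33 tested members 12 rose, 0 fell and 21 did not pass, with a median difference of 0.64 against -0.10 for all genes. Besides Ctsk, Slc9b2, Atp6v0d2 and Tfec, the rises included Mmp9, a gelatinase used in matrix invasion. Mmp9 had levels of -6.01, -5.90 and -5.93 on Ctrl1 to Ctrl3 and 0.50, 0.20 and 0.43 on M1 to M3. All M arrays were far above all Ctrl arrays, 2 of which were well above background, and Mmp9 rose 80.1-fold (adjusted p = 4.72e-06), or 30.6-fold with normexp. Acp5 had levels of -0.59, -0.78 and 0.22 on Ctrl1 to Ctrl3 and 4.58, 5.05 and 4.64 on M1 to M3. Acp5, which encodes the tartrate-resistant acid phosphatase that stains osteoclasts, was bright in both groups and rose 35.2-fold (adjusted p = 3.91e-05).

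Nfatc1 had levels of -0.97, -1.03 and -0.96 on Ctrl1 to Ctrl3 and 1.75, 1.79 and 1.69 on M1 to M3. Nfatc1, which encodes the leading osteoclast transcription factor, was nearly constant within each group and rose 6.62-fold (adjusted p = 8.29e-05), or 10.9-fold over the mean of its probes. Its costimulatory receptor gene Oscar rose by 1.84 ± 0.19 (adjusted p = 0.000863) and Fosl1, an AP-1 subunit gene, by 1.85 ± 0.23 (adjusted p = 0.00229). The bicarbonate exchanger Slc4a2, the chloride channel Clcn7 and the lysosome-positioning adaptor Plekhm1, each needed for resorption, rose by 1.32 ± 0.24, 1.10 ± 0.20 and 0.82 ± 0.20. Those 3 calls ended when Ctrl1, Ctrl2, M1 or M3 was left out, and that of Plekhm1 also without M2 (adjusted p up to 0.0882, 0.101 and 0.194).

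The other members did not pass. Tnfrsf11a, which encodes the RANK receptor, differed by -0.01 ± 0.22 and its adaptor Traf6 by -0.10 ± 0.28. The fusion protein genes Dcstamp and Ocstamp differed by 0.47 ± 0.21 and -0.27 ± 0.44, and the attachment integrins Itgav and Itgb3 by 0.79 ± 0.33 and -0.35 ± 0.25. The carbonic anhydrase gene Car2 (-0.04 ± 0.21), the pump subunits Tcirg1 (0.52 ± 0.22), Atp6v1a (0.19 ± 0.24) and Atp6v1c1 (-0.05 ± 0.30), and the calcitonin receptor gene Calcr (0.47 ± 0.22) also did not pass. Fos, Mitf, Snx10, Ostm1, Siglec15, Trem2, Prdm1, Jdp2, Src and Mmp14 had differences from -0.51 ± 0.24 to 0.68 ± 0.28.

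**Figure D4:**
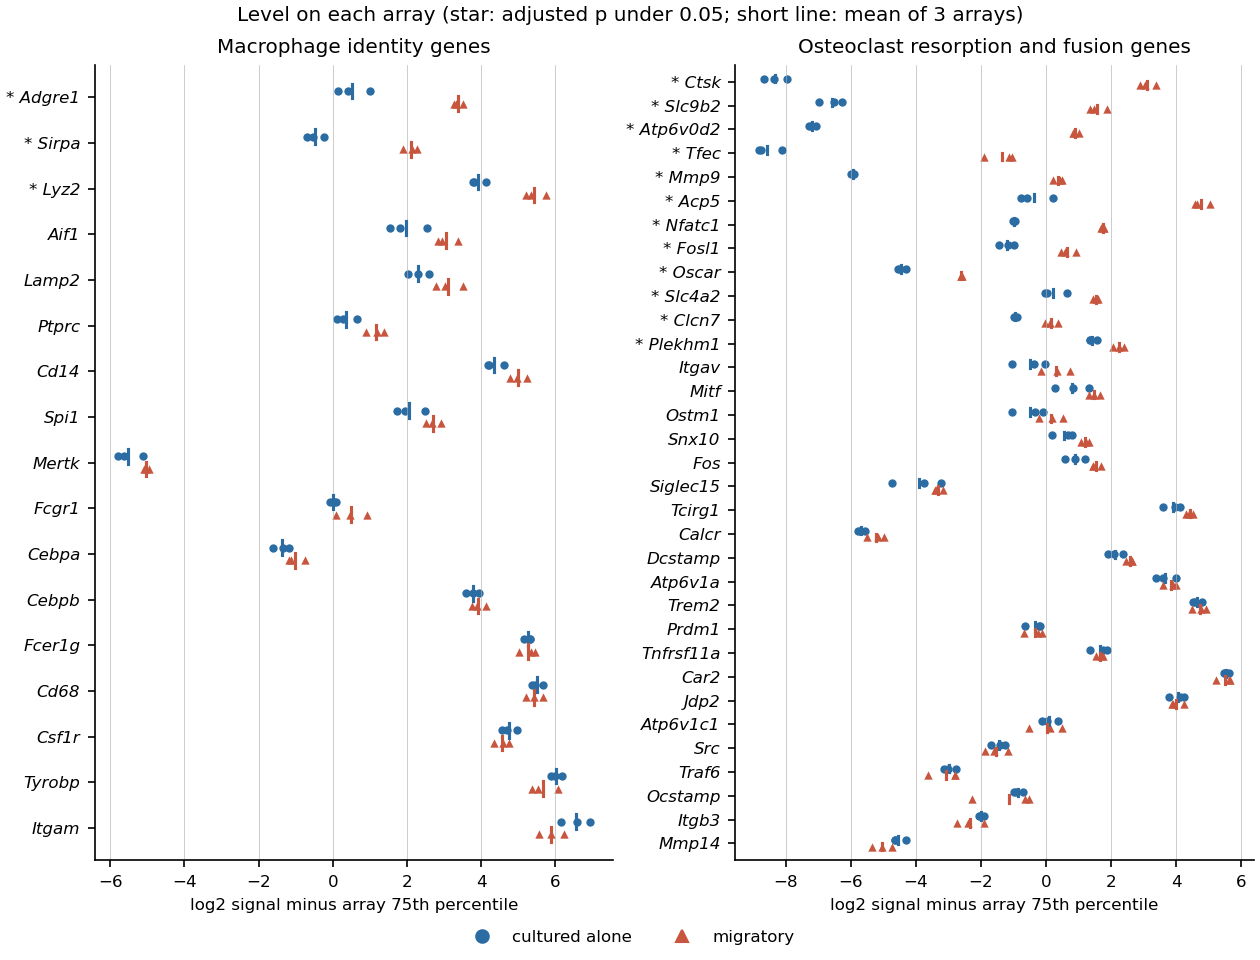
Levels of tested macrophage identity genes (left, 17 of 18) and osteoclast resorption and fusion genes (right) on each array, in log2 units relative to the array's 75th percentile, ordered by difference; circles are Ctrl arrays, triangles M arrays, short lines means of 3 arrays, and a star marks an adjusted p under 0.05. On the right the upper 12 genes carry stars, from Ctsk, which no Ctrl array measured well above background, down to Plekhm1 with a difference of 0.82; the remaining 21 carry none.

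Most other genes of the acid compartment did not pass. Of 18 tested subunits of the vacuolar proton pump 3 rose and 15 did not pass: Atp6v0d2, Atp6v0a1 by 1.85 ± 0.28 (adjusted p = 0.00677) and Atp6v1b2 by 1.14 ± 0.23, the last of which did not pass without Ctrl1, Ctrl2, M1 or M3 (adjusted p up to 0.119). Of 48 lysosome hydrolase and membrane genes 2 rose, the cathepsins Ctsh by 3.96 ± 0.44 (adjusted p = 0.00133) and Ctsc by 1.32 ± 0.24 (adjusted p = 0.0161), and 46 did not pass. Ctsc did not pass without Ctrl2, M1 or M3 (adjusted p up to 0.0842). These shares, 2 of 48 and 3 of 18, stand beside 6.29% of all genes. Without Ctrl2, M1 or M3 1 lysosome gene rose, and without Ctrl3 11 rose and 2 fell; of the pump subunits 5 rose without Ctrl3.

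Of 14 MiT/TFE factors and lysosome regulators 2 rose, Tfec and Gpnmb, and without Ctrl3 6 rose and 2 fell. Gpnmb had levels of -3.24, -3.45 and -3.51 on Ctrl1 to Ctrl3 and 1.71, 1.94 and 2.01 on M1 to M3. Gpnmb, a membrane glycoprotein gene induced by this family, was higher on every M array and rose 39.1-fold (adjusted p = 9.65e-06). The family's other members did not pass: Mitf differed by 0.68 ± 0.28, Tfe3 by -0.23 ± 0.21 and Tfeb by -0.70 ± 0.22. The M arrays of Tfeb (0.73 to 1.10) lay below its Ctrl arrays (1.42 to 1.81), as did those of 19.8% of all genes. The folliculin pathway genes Fnip1, Fnip2, Flcn and Rragc differed by 1.26 ± 0.36, 0.98 ± 0.26, 0.41 ± 0.20 and 0.88 ± 0.26, and Rragd by -0.78 ± 0.36, without passing. Sqstm1, Atp6v1h and Uvrag differed by 0.48 ± 0.23, 0.38 ± 0.23 and -0.48 ± 0.22 and did not pass, nor did Ppargc1a, which no M array measured well above background.

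Chemokine ligands were higher in part. Of 36 listed, 24 were tested, 7 rose (29.2%, beside 6.29% of all genes), 0 fell and 17 did not pass. Ccl2 had levels of -1.56, -1.76 and -2.02 on Ctrl1 to Ctrl3 and 4.13, 4.41 and 4.17 on M1 to M3. Ccl2, the main chemoattractant for monocytes, was higher on each M array and rose 64.8-fold (adjusted p = 7.11e-06); Ccl7, which acts on the same receptor, rose by 5.58 ± 0.20 (adjusted p = 7.11e-06) and was well above background on 1 Ctrl array. Of the neutrophil chemoattractants Cxcl3 was at least 8.92-fold higher and Cxcl2 rose 22.3-fold (adjusted p = 2.03e-05 and 0.000101). Cxcl1, a close relative chosen for mention after its values were seen, differed by -0.02 ± 0.20 and did not pass. Pf4 is also a member and is described above. Without Ctrl3, 11 ligands rose and 7 fell.

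Among 25 tested chemoattractant receptors 10 rose, 0 fell and 15 did not pass. The median difference was 0.60 over those tested and 0.02 over all 35 on the array, dim probes included; without Ctrl3, 1 fell. S1pr1 had levels of -8.88, -8.97 and -8.27 on Ctrl1 to Ctrl3 and -4.01, -4.06 and -3.77 on M1 to M3. S1pr1, the receptor through which sphingosine phosphate directs leukocyte egress, was at or near the floor on all Ctrl arrays and at least 5.83-fold higher in M (adjusted p = 2.57e-05). Fpr2, a formyl peptide receptor gene, was at least 3.15-fold higher, C5ar1, the receptor of the complement fragment C5a, rose by 3.03 ± 0.27, and Cxcr3, a receptor for interferon-induced chemokines, rose by 3.08 ± 0.39 (adjusted p = 0.000895, 0.000359 and 0.00261).

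Cytokine and growth factor genes held 15 rises and 0 falls among 33 tested of 46 listed, with a median difference of 0.52 over those tested and 0.69 with dim probes included; without Ctrl2, 9 rose, and without Ctrl3, 2 fell. Areg had levels of -6.20, -5.72 and -5.97 on Ctrl1 to Ctrl3 and -0.68, -0.32 and -0.38 on M1 to M3. Areg, which encodes the EGF receptor ligand amphiregulin, was higher on each M array and rose 45.3-fold (adjusted p = 1.03e-05), or 20.3-fold with normexp. Csf3, which encodes G-CSF, rose by 3.86 ± 0.22 (adjusted p = 3.31e-05) and Vegfc, a lymphatic growth factor gene, by 2.83 ± 0.19 (adjusted p = 7.73e-05). The interleukin gene Il1b and the gene of the antagonist of its receptor, Il1rn, rose together, by 3.78 ± 0.27 and 2.93 ± 0.25 (adjusted p = 0.000109 and 0.000273). For Csf3 M minus T was -2.08 (adjusted p = 5.09e-05), whereas Areg and Vegfc were higher in M than in T, by 1.82 and 1.38 (adjusted p = 0.000166 and 0.000348).

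Matrix proteases and their inhibitors changed in both directions: of 28 tested 9 rose, 2 fell and 17 did not pass. With Ctsk and Mmp9, the aggrecan-cleaving protease Adamts1 was at least 20.1-fold higher (adjusted p = 1.35e-05), the plasminogen activator Plat rose by 3.88 ± 0.19 (adjusted p = 2.25e-05) and Mmp11 by 2.33 ± 0.23 (adjusted p = 0.000661; 3.22 over the mean of its probes). Timp1 had levels of -1.17, -1.12 and 0.03 on Ctrl1 to Ctrl3 and -2.76, -2.51 and -2.52 on M1 to M3. Timp1, a secreted metalloproteinase inhibitor, was below Ctrl on each M array and fell by 1.85 ± 0.33 (adjusted p = 0.015), a call that ended without M1 and without M3 (adjusted p up to 0.0693). Adam10, a membrane sheddase, fell by 1.11 ± 0.23 (adjusted p = 0.0256), which did not pass without Ctrl1, Ctrl2, M2 or M3 (adjusted p up to 0.128). Without Ctrl1, Ctrl2, M1 or M2 1 member fell, without M3 0, and without Ctrl3 5.

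Among 26 tested genes of matrix proteins and hyaluronan 2 rose and 2 fell (7.69% each), and the 22 others did not pass. Of all genes 6.29% rose and 2.58% fell. Lamb2, a laminin chain gene, rose by 2.24 ± 0.21 (adjusted p = 0.000416), against the fall of Pxdn. Hyal2 rose by 1.02 ± 0.24, and Has2, a hyaluronan synthase gene that no M array measured well above background, was at least 1.82-fold lower; each of these calls ended when any array other than Ctrl3 was left out (adjusted p up to 0.183 and 0.122). The counts were 1 and 1 without any array other than Ctrl3, and 4 and 6 without Ctrl3. Of 25 integrin and adhesion genes 5 rose, 0 fell and 20 did not pass; the rises included Itgax (CD11c), which was at least 5.88-fold higher (adjusted p = 0.000778), and Selp. Itgal and Selplg rose by 1.22 ± 0.23 and 1.03 ± 0.21, calls that ended without Ctrl1, Ctrl2, M1 or M3 and, for Selplg, without M2 (adjusted p up to 0.0925 and 0.122). The count of rises was 2 without Ctrl1, Ctrl2, M1 or M3, 3 without M2, and 8 with 4 falls without Ctrl3.

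Markers of both activation states rose in part. Of 26 tested alternative activation genes 11 rose and 0 fell (median 0.74, or 0.49 with dim probes included), and of 18 classical activation genes 5 rose and 0 fell (median 0.39 either way). Mrc1, Retnla, Ccl22 and Cd209b of the alternative list and Il6, Il12a and Ido1 of the classical list were well above background on no array. Those genes were chosen for mention after their values were seen. Myc had levels of -3.41, -3.33 and -2.72 on Ctrl1 to Ctrl3 and 0.96, 1.27 and 0.94 on M1 to M3. Myc, a growth-promoting transcription factor gene also induced in alternative activation, was higher on each M array and rose 18.5-fold (adjusted p = 4.2e-05). The lectin genes Clec10a and Clec7a rose by 2.56 ± 0.20 and 2.47 ± 0.31, and Arg1, the arginine-degrading enzyme, by 2.23 ± 0.22 (adjusted p = 0.000202, 0.00228 and 0.000668). On the classical side Acod1, which makes itaconate, rose by 3.48 ± 0.21 (adjusted p = 4.16e-05) next to Il1b, Fpr2 and Cd86. Socs3 rose by 1.11 ± 0.22, a call that ended when any array other than Ctrl3 was left out (adjusted p up to 0.120). Without Ctrl3 14 alternative activation genes rose and 8 fell, and 1 classical activation gene fell.

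Antigen presentation genes rose in 6 of 18 tested cases. H2-Aa had levels of -6.22, -6.25 and -7.58 on Ctrl1 to Ctrl3 and -3.24, -2.88 and -3.19 on M1 to M3. H2-Aa, an MHC class II chain gene, was higher on each M array and rose 12-fold (adjusted p = 0.000849), or 4.02-fold with normexp. Another class II chain gene, H2-Eb1, rose by 2.56 ± 0.27, and the peptide-loading genes H2-DMb2 and H2-DMb1 by 2.87 ± 0.22 and 2.42 ± 0.45 (adjusted p = 0.000845, 0.000176 and 0.0173). The H2-DMb1 call ended without Ctrl2 and without M1 (adjusted p up to 0.0774), and its rise was 3.01 without M3. Cd86, the costimulatory ligand, was at least 5.11-fold higher (adjusted p = 3.62e-05). Among genes that restrain T cells (checkpoint ligands, ectonucleotidases and related genes) 8 of 24 tested rose and 0 fell. Nt5e, the CD73 ectonucleotidase that makes adenosine, was at least 11.4-fold higher (adjusted p = 2.94e-05), and Cd200r1, an inhibitory receptor gene, rose by 3.70 ± 0.25 (adjusted p = 8.29e-05). Cd274, which encodes PD-L1, rose by 1.91 ± 0.40 (adjusted p = 0.0284), a call that ended without Ctrl1, M1 or M3 (adjusted p up to 0.114). Without Ctrl1, M1 or M3 5 of these genes rose, and without Ctrl3 3 fell. Of the presentation genes 4 rose without Ctrl2.

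Receptors for uptake rose in part. Of 31 tested scavenger and phagocytic receptor genes 11 rose and 0 fell, with Trem3 followed by the fatty acid receptor Cd36 (2.61 ± 0.27, adjusted p = 0.000887) and the C-type lectins Clec4n and Clec4e (2.47 ± 0.21 and 2.46 ± 0.22, adjusted p = 0.000273 and 0.000402). Without M3, 7 rose. Of 12 Fc receptor genes 4 rose and 8 did not pass. Fcgr3 had levels of -0.16, -0.31 and 0.28 on Ctrl1 to Ctrl3 and 2.75, 3.22 and 2.31 on M1 to M3. Fcgr3, an activating receptor for IgG, was higher on each M array and rose 7.07-fold; the inhibitory Fcgr2b rose by 2.22 ± 0.26 and the activating Fcgr4 by 2.08 ± 0.25 (adjusted p = 0.000771, 0.00155 and 0.00208). Trim21, a cytosolic antibody receptor gene, rose by 1.54 ± 0.34, a call that ended when any array other than Ctrl3 was left out (adjusted p up to 0.125). Of 20 complement genes 6 rose and 0 fell: C3 rose by 3.89 ± 0.20, C4b by 2.46 ± 0.38 and C1ra by 1.56 ± 0.24 (adjusted p = 2.57e-05, 0.00679 and 0.00704). Without Ctrl3, 7 scavenger, 7 complement and 2 Fc receptor genes fell, and without M2, 1 scavenger and 1 complement gene. The medians of the Fc receptor and complement lists, -0.01 and -0.19, ranged from -0.08 to 0.29 and from -0.26 to 0.36 over the alternatives.

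Interferon-stimulated genes rose in 14 of 38 tested cases, 0 fell and 24 did not pass, with a median difference of 0.83. Rsad2 had levels of -4.03, -3.72 and -3.98 on Ctrl1 to Ctrl3 and -1.23, -1.62 and -1.14 on M1 to M3. Rsad2, which encodes the antiviral enzyme viperin, was higher on each M array and rose 5.96-fold (adjusted p = 0.000306). The GTPase gene Gbp3 rose by 3.33 ± 0.35, the nucleotide kinase gene Cmpk2 by 2.46 ± 0.30 and Oasl2 by 2.39 ± 0.28 (adjusted p = 0.000895, 0.00191 and 0.00161). Ifit1 rose by 1.59 ± 0.30, a call that ended without Ctrl2 (adjusted p = 0.0828). The count depended on the arrays: 5 rose without Ctrl1, 4 without Ctrl2, 5 without M1, 9 without M2, 5 without M3 and 22 without Ctrl3. Of 33 immediate early and AP-1 genes 8 rose and 0 fell, among them Myc and Spry1, an inhibitor of receptor signalling that was at least 4.75-fold higher (adjusted p = 0.00336). Dusp5, a phosphatase of ERK, rose by 1.54 ± 0.23 (adjusted p = 0.0064) and Egr1 by 1.72 ± 0.41, a call that ended without Ctrl1, M1 or M3 (adjusted p up to 0.155). Of these early genes 4 rose without Ctrl1, M1 or M3, 5 without Ctrl2, and 15 rose and 3 fell without Ctrl3.

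Promoter letters were read for these groups from RefSeq (GRCm38.p6), as 250 bases before to 50 after each start, on both strands; 13290 of the 18067 tested genes had an entry. TTCNNTTTC, the core of the interferon response element, was found for 21 of 31 interferon-stimulated genes with an entry (67.7%), against 8.83% of tested genes and 9.76% of all genes in the table. It was present for 10 of the 13 called members with an entry and for 9 of the 16 tested members that were not called. The AP-1 site TGACTCA, letters that the antioxidant response element can also contain, was found for 27 of 279 called genes at least 4-fold higher (9.68%), for 1 of 45 at least 4-fold lower (2.22%) and for 4.97% of tested genes. GTCACGTG, the lysosome element of the MiT/TFE family, was found for 10 of 38 lysosome genes (26.3%), for 7 of the 279 higher genes (2.51%) and for 3.85% of tested genes. GGGACTTTC (NF-kB) and CCAAT were found for 0.358% and 39.1% of the higher genes and for 0.482% and 42.5% of tested genes. The shares were not tested. Promoters were chosen for printing by matches in the 250 bases before the start only, and those on 1 chromosome were left out. Given are the interferon-stimulated promoters with most matches among the called members, and the 3 largest fitted rises with an AP-1 site there. They are shown as those 250 bases, 5′ to 3′ on the gene's strand, with matches on either strand in capitals. Scel, Aqp9, Isg15 and Ifit3 were chosen after their values were seen. No Ctrl array measured Scel or Aqp9 well above background, and they were at least 23.4-fold and 9.62-fold higher; Isg15 and Ifit3 rose by 1.12 ± 0.27 and 1.05 ± 0.22. The call of Isg15 ended when any array other than Ctrl3 was left out (adjusted p up to 0.170), and that of Ifit3 without Ctrl1, Ctrl2, M1 or M3 (adjusted p up to 0.126).
Ifit1 (interferon response, chr19:34640639-34640888, + strand): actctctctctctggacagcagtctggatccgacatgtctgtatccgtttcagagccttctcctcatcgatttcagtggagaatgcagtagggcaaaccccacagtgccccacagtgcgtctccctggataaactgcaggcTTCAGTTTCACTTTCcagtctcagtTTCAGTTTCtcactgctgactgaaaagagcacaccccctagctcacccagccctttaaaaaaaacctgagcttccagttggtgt
Isg15 (interferon response, chr4:156200819-156201068, - strand): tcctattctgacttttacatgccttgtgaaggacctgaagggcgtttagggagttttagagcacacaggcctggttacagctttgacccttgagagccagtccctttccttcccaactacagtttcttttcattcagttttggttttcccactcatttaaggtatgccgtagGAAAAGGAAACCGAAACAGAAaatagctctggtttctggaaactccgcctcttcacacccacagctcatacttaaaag
Ifit3 (interferon response, chr19:34583279-34583528, + strand): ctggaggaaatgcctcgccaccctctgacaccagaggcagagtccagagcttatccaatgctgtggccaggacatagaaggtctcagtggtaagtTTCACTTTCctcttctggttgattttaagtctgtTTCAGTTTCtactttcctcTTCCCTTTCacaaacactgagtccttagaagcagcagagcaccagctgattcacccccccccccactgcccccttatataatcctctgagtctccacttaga
Adh7 (AP-1, chr3:138217523-138217772, + strand): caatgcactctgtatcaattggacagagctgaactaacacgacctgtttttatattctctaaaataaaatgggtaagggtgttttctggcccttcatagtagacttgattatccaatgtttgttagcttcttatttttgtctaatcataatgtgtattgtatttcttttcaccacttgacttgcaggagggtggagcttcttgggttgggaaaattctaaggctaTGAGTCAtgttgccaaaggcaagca
Scel (AP-1, chr14:103513091-103513340, + strand): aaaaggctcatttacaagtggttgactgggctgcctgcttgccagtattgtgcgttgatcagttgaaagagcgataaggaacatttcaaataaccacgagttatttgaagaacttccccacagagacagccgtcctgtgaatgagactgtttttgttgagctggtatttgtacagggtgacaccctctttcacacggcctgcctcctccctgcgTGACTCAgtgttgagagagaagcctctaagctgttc
Aqp9 (AP-1, chr9:71162634-71162883, - strand): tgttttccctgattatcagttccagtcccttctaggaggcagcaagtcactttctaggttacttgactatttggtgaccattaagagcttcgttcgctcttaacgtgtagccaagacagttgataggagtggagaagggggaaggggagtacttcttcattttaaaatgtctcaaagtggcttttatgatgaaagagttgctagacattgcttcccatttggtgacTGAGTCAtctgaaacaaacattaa

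Redox and metal genes rose in part. Of 28 NRF2 antioxidant targets 5 rose, 0 fell and 23 did not pass. Nqo1 had levels of -5.10, -5.27 and -4.39 on Ctrl1 to Ctrl3 and -0.01, -0.06 and -0.08 on M1 to M3. Nqo1, a quinone reductase and the standard reporter of this pathway, was higher on each M array and rose 29.2-fold (adjusted p = 2.94e-05), or 11.6-fold with normexp. Osgin1 rose by 2.21 ± 0.23, the carbonyl reductase Cbr3 by 2.04 ± 0.26 and the NADPH-forming malic enzyme Me1 by 1.55 ± 0.22 (adjusted p = 0.000855, 0.00235 and 0.00473). Srxn1 rose by 1.24 ± 0.24, a call that ended when any array other than Ctrl3 was left out (adjusted p up to 0.0983). Of 20 iron and metallothionein genes 5 rose and 0 fell. Lcn2, which binds iron-carrying siderophores, rose by 3.41 ± 0.19 and the ferroxidase gene Cp by 3.14 ± 0.20 (adjusted p = 3.43e-05 and 5.83e-05). Slc11a1, the phagosomal metal exporter, rose by 1.56 ± 0.27, a call that ended without Ctrl2 (adjusted p = 0.0692). Hfe and the haptoglobin gene Hp rose by 1.35 ± 0.26 and 1.26 ± 0.21, and their calls ended without Ctrl2, M1 or M3 (adjusted p up to 0.106 and 0.0670), that of Hfe also without Ctrl1 and M2. The count of iron genes was 2 without Ctrl2, 3 without M1 or M3 and 8 without Ctrl3, where 1 iron gene and 1 NRF2 target fell.

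Lipid genes passed in part, beside 6.29% higher among all genes. Of 27 lipid-associated macrophage genes 4 rose (14.8%) and 0 fell, and 3 fell without Ctrl3: the rises were Gpnmb, Itgax, Cd36 and Apoc2, the last, an apolipoprotein gene, by 1.47 ± 0.34 with a call that ended without Ctrl2 or any M array (adjusted p up to 0.133). Trem2, of the same programme, differed by 0.09 ± 0.21. Of 30 sterol and fatty acid synthesis genes 2 rose (6.67%) and 1 fell, and 0 fell when any array other than Ctrl3 was left out. Scd1, a fatty acid desaturase, rose by 2.80 ± 0.23 (adjusted p = 0.000231) with Me1. Without Ctrl3, 5 of these genes rose. Of 24 prostaglandin and leukotriene genes 7 rose (29.2%) and 1 fell. Ptger2 had levels of -8.92, -8.94 and -8.26 on Ctrl1 to Ctrl3 and -3.09, -3.30 and -2.62 on M1 to M3. Ptger2, a receptor for prostaglandin E2, was near the floor on each Ctrl array and at least 11.2-fold higher in M (adjusted p = 2.03e-05). Another receptor for the same ligand, Ptger1, fell by 2.35 ± 0.36 (adjusted p = 0.00699). The secreted phospholipases Pla2g2d and Pla2g2e rose by 3.25 ± 0.22 and 1.90 ± 0.30 and the prostaglandin D synthase Hpgds by 2.97 ± 0.25 (adjusted p = 8.29e-05, 0.00807 and 0.000267). With normexp the differences of Pla2g2d and Hpgds were 1.52 and 1.86. Without Ctrl2, 4 of these genes rose, and without Ctrl3, 3 fell.

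Some protein folding genes of the endoplasmic reticulum fell. Of 32 tested members of the unfolded protein and integrated stress response list 0 rose, 4 fell and 28 did not pass; the median was -0.24, and 0.06 under median scaling. Hsp90b1 had levels of 4.35, 4.03 and 3.85 on Ctrl1 to Ctrl3 and 2.08, 2.75 and 2.41 on M1 to M3. Hsp90b1, which encodes the chaperone GRP94, was below Ctrl on each M array and fell by 1.67 ± 0.25 (adjusted p = 0.00628). Hyou1, a chaperone of the same compartment, fell by 1.404 ± 0.19 (adjusted p = 0.0038). The calls of Pdia6 (difference -0.99 ± 0.20) and Canx (difference -0.85 ± 0.20) ended without Ctrl1, Ctrl2, M1 or M3, and that of Canx also without M2 (adjusted p up to 0.134 and 0.176). Without Ctrl1, Ctrl2, M1 or M3, 2 of these genes fell, and without Ctrl3, 5 fell and 3 rose.

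Housekeeping and motility lists held few calls. The shares that rose were 5.41% for hypoxia and glycolysis and 8% for Toll-like receptors and adaptors, near the 6.29% of all genes. None of 75 cytosolic ribosomal protein genes and none of 59 respiratory chain subunits passed in either direction by limma with 6 arrays, while 3 and 2 of them had an unadjusted p under 0.05; their medians, -0.29 and -0.14, were 0.02 and 0.17 under median scaling, and -0.04 and 0.06 under quantile normalization. Without Ctrl3, 1 respiratory chain gene fell. Of 49 tested actin cytoskeleton and motility genes 1 rose, Lasp1 (0.93 ± 0.23), and 1 fell, Rdx (-0.88 ± 0.21), and neither call held when an array other than Ctrl3 was left out (adjusted p up to 0.187 and 0.179); without Ctrl3, 5 rose and 2 fell. Of 51 cell cycle genes only Ccnd2, a cyclin of early G1, passed, with a difference of -1.07 ± 0.19 (adjusted p = 0.0154); the call ended without Ctrl1, Ctrl2, M1 or M3 (adjusted p up to 0.0870), 2 fell without M2, and 8 rose and 3 fell without Ctrl3. Of 37 hypoxia and glycolysis genes P4ha2, a collagen prolyl hydroxylase subunit, and the hexokinase Hk3 rose by 2.58 ± 0.22 and 2.52 ± 0.25 (adjusted p = 0.000292 and 0.000602), and Ankrd37 fell by 1.39 ± 0.23 (adjusted p = 0.0107), which did not pass without Ctrl2 or M3 (adjusted p up to 0.0549). For P4ha2 M minus T was -2.26 (adjusted p = 4.45e-05). Of 18 heat shock genes Hspb7 fell and none rose, but 2 rose without Ctrl3. Of 25 Toll-like receptor and adaptor genes 2 rose: Irak3, a brake on their signalling, by 2.001 ± 0.29 (adjusted p = 0.00548) and Nod1 by 1.51 ± 0.29, a call that ended without Ctrl2 and M1 (adjusted p up to 0.0897), and 9 rose and 1 fell without Ctrl3, and 1 rose without Ctrl2 or M1.

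**Figure D5:**
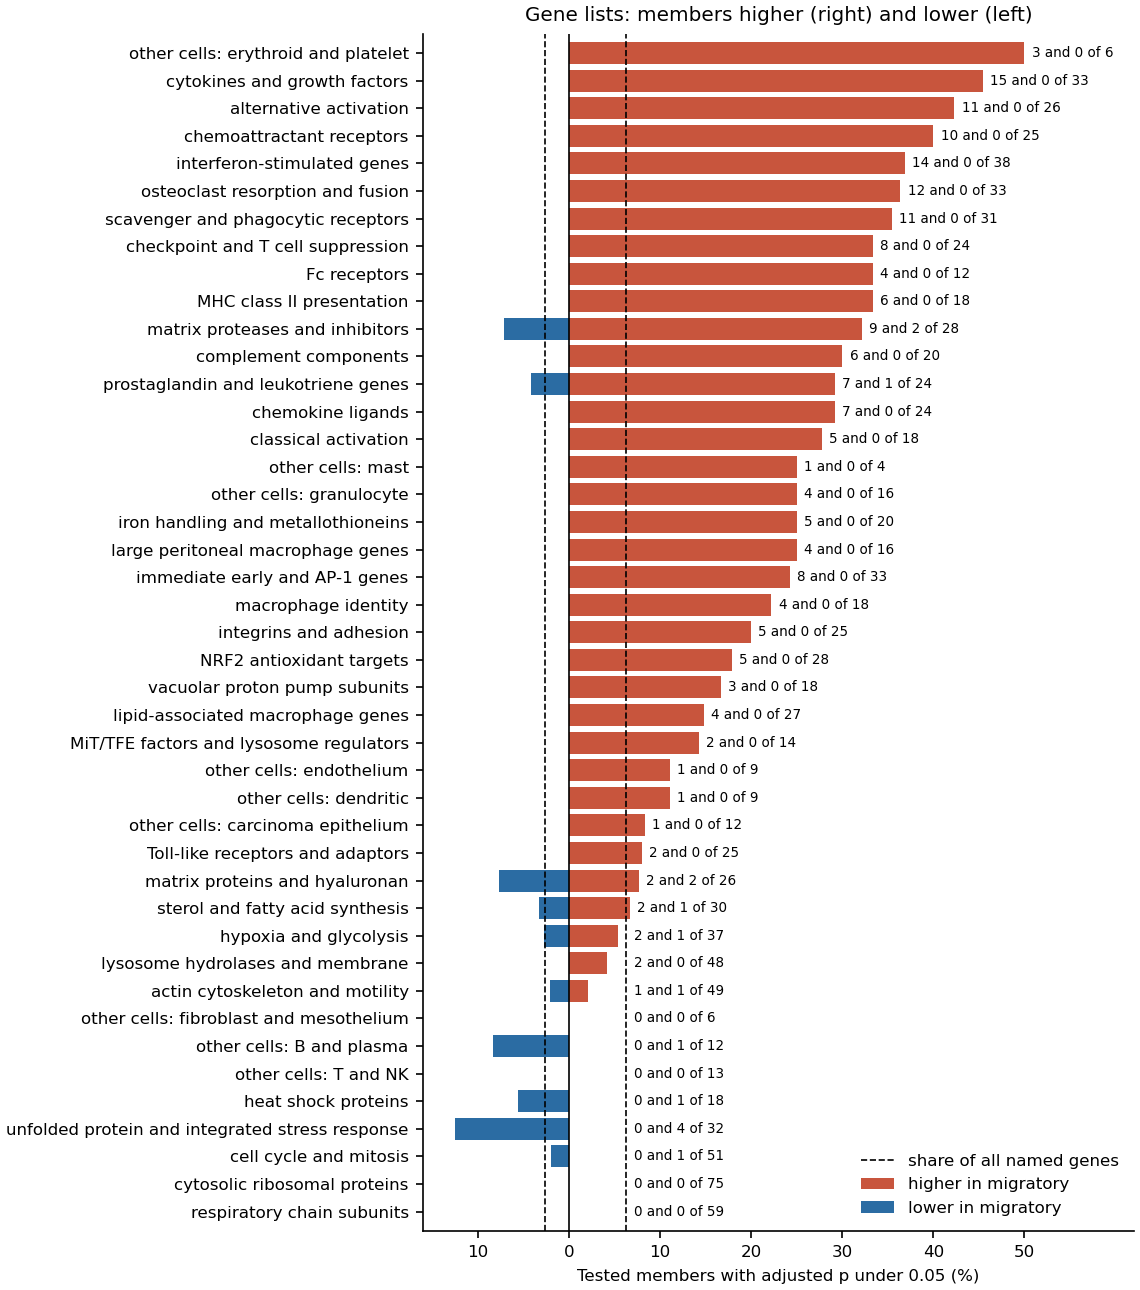
For each gene list, the share of tested members called higher in M (bars to the right) and lower (bars to the left), with the counts higher and lower of those tested printed beside it. Dashed lines mark the shares of all 18067 named genes, 6.29% higher and 2.58% lower; bars of cytokines and growth factors (15 of 33), alternative activation (11 of 26) and chemoattractant receptors (10 of 25) are among the longest to the right, and ribosomal and respiratory chain genes have no bar. Lists share members, and a gene dim in Ctrl entered only where all M arrays were bright.

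Markers of cells other than macrophages were examined for all 6 arrays. T and NK cell markers had 0 calls among 13 tested of 22 listed, with a summed linear level of 9.51 to 30.4 times the array's 75th percentile in Ctrl and 6.88 to 9.0 in M; Cd3e differed by -1.59 ± 0.72, Cd3d and Cd8a were at background on all 6, and 8 of these markers fell and 1 rose without Ctrl3, and 1 fell without M3. B and plasma cell markers had 1 fall, Bank1 (-1.75 ± 0.37, ended without Ctrl1, Ctrl2, M1 or M3, adjusted p up to 0.0941), among 12 tested, with sums of 18.8 to 19.4 and 12.3 to 17.5; Ms4a1 was not well above background, and 3 fell and 1 rose without Ctrl3. Carcinoma epithelium markers had 1 rise, Areg, among 12 tested of 19, with sums of 2.43 to 4.36 in Ctrl and 2.79 to 3.63 in M. Epcam, Krt18 and Krt19 differed by -0.35 ± 0.24, -0.21 ± 0.22 and -0.69 ± 0.31 without passing, and Krt8 and Cdh1 were well above background on 2 Ctrl arrays and no M array; 5 of these markers fell without Ctrl3. Fibroblast and mesothelium markers had 0 rises and 0 falls among 6 tested of 17, with Dcn and Upk3b below background throughout, and 1 fell without Ctrl3 or M2. Mast cell markers had 1 rise among 4 tested of 11, Gata2 by 1.28 ± 0.24 (ended without Ctrl1, Ctrl2 or M1, adjusted p up to 0.0956). Dendritic cell markers had 1 rise among 9 tested of 13, Batf3 by 2.41 ± 0.25. Endothelial markers had 1 rise among 9 tested of 12, the receptor Tie1 by 3.42 ± 0.23, beside Kdr at -0.08 ± 0.20. The median differences of the mast cell, dendritic cell and endothelial lists were -0.71, -0.32 and -0.08. Without Ctrl3, 1 mast cell, 2 dendritic cell and 1 endothelial marker fell.

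Granulocyte and platelet markers moved with M in part. Of 16 tested granulocyte markers of 20, 4 rose: S100a8, Lcn2, Mmp8 and S100a9, and the summed level was 18.1 to 28.0 in Ctrl and 33.7 to 42.2 in M. S100a8 had levels of -3.97, -4.07 and -3.44 on Ctrl1 to Ctrl3 and 1.15, 1.09 and 1.18 on M1 to M3. S100a8, a subunit of calprotectin that macrophages also make, was higher on each M array and rose 31.3-fold (adjusted p = 1.62e-05). Mmp8 rose by 1.94 ± 0.21 and S100a9 by 1.58 ± 0.30, the latter with a call that ended without Ctrl2 and M1 (adjusted p up to 0.0802). The granule gene Mpo differed by -0.03 ± 0.32, Ly6g was at background on all 6 arrays, and 3 of the markers fell without Ctrl3 and 1 without M2. Of 6 tested erythroid and platelet markers of 12, Pf4, the platelet glycoprotein gene Gp9 (2.11 ± 0.24, adjusted p = 0.00131) and Hba-a1 (0.92 ± 0.20) rose, with sums of 1.15 to 1.70 in Ctrl and 5.21 to 11.5 in M; the Hba-a1 call ended when any array other than Ctrl3 was left out (adjusted p up to 0.155). Hbb-bt and Alas2 were not well above background, and 1 marker of this list fell without Ctrl3. Of its other untested members, Ppbp was well above background on 2 M arrays and 0 Ctrl arrays. Gp1ba was so on 1 Ctrl array and 0 M arrays. The part of such cells in the rises of Lcn2, Pf4, S100a8 and the chemokine genes was not tested.

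The rises and falls of M were also set against the other co-cultured group, T. Over the same genes 13.5% were higher and 8.96% lower in M than in T by limma over 9 arrays, and T lay on a slide of its own, so that slide and group cannot be told apart. Ctsk was 8.87 higher (adjusted p = 2.02e-07) and Gpnmb was 4.96 higher (adjusted p = 3.8e-07) in M than in T. No T array measured Slc9b2, Atp6v0d2 or Tfec well above background, and these were at least 269.9-fold, 170.1-fold and 35.2-fold higher in M (adjusted p = 2.02e-07, 2.02e-07 and 4.1e-07). For Ctsk, Slc9b2, Atp6v0d2, Tfec and Gpnmb the T means were -5.77, -8.34, -7.54, -8.56 and -3.07, nearer to the Ctrl means of -8.34, -6.58, -7.20, -8.58 and -3.40 than to those of M. Nfatc1 was 3.26 higher in M than in T (adjusted p = 1.23e-06), Acp5 2.98 and Mmp9 2.90 (adjusted p = 5.87e-05 and 4.66e-06). For other rises the difference between M and T did not pass: it was -0.21 ± 0.28 for Cxcl2, -0.03 ± 0.17 for Acod1, 0.46 ± 0.16 for Lcn2 and 0.10 ± 0.23 for Fcgr4 (adjusted p = 0.66, 0.923, 0.0618 and 0.797). Among the largest falls, Tmem26, Hspb7, Igf2bp1 and Pxdn were lower in M than in T, with differences of -5.79, -5.16, -3.87 and -4.78 (adjusted p from 4.1e-07 to 9.84e-06), whereas Jakmip2 differed by 0.03 ± 0.61 and did not pass. Comparisons of M with Ctrl and with T share the M arrays.

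Of 14637 tested probes without a gene symbol, 245 (1.67%) were higher and 485 (3.31%) lower in M, with a median difference of -0.40. The lower count was 85 without M3, 89 without Ctrl2, 107 without M1, 144 without Ctrl1 and 4688 without Ctrl3, and the higher count 111, 112, 118, 138 and 742. The higher count thus exceeded the lower without M3, Ctrl2 or M1, and also under median scaling (394 and 325) and quantile normalization (289 and 175). Of 4943 genes with more than 1 tested probe 522 were called, and 6 of these had another probe called in the opposite direction: Casz1, Sfxn5, Upp1, Trib1, Gm9732 and Crxos.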

How the data were processed

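Total RNA of 9 samples was hybridised to Agilent 1-colour (Cy3) mouse arrays, and 6 of them, M and Ctrl, were compared. Per the file headers and the submitters' processing notes, the authors used Agilent Feature Extraction 10.7.3.1, which gave the deposited processed intensities: background-subtracted and detrended per spot, not scaled between arrays, with probes placed on build mm9. Control spots and spots flagged as outliers were dropped, replicate spots of 1 probe were averaged (none was saturated), and log2 intensity minus each array's 75th percentile was taken. The number of arrays limits the precision. Testing required all 3 arrays of M, or all 3 of Ctrl, to measure the probe well above background, and a gene was represented by its probe with the highest mean. Differences were tested with limma's lmFit and eBayes (version 3.58.1, R 4.3.3) over the 6 arrays, with Benjamini-Hochberg adjustment over named genes and unnamed probes together and a threshold of 0.05; M against T used 9 arrays. The script was tested on simulated data. A probe with no array of the dimmer group well above background has only a bound: "at least N-fold" sets the brighter group's mean against a floor, which on each array is the lowest signal of any probe well above background, or the probe's own signal if that is higher. Named were the 12 largest rises and falls, up to 5 called members of each list and up to 3 called against the rest, all members of the macrophage identity, large peritoneal macrophage, osteoclast and MiT/TFE lists, and markers of other cells; a few of these genes are not reported here. The members and lists were chosen with earlier results of these data known. Alternatives were other scalings, background correction and filters, 9 arrays, array weights, the replicate number as a block, and leaving out each array. The submitters' value table was not used here.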

Additional observations from a re-analysis of the deposited data

How the results depend on the processing

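The counts and the balance of higher and lower calls both moved with the settings. Of the calls of named genes 70.9% were higher with the settings reported and 84.7% without Ctrl2. That share was 46.2% with the replicate block, 46% without Ctrl3 and 44.4% with array weights. Named genes called higher and lower, 1137 and 466 with the settings reported, were 1529 and 303 under median scaling, 1214 and 249 under quantile normalization, 1260 and 322 with normexp background correction, 1001 and 282 with no filter on dim probes, 1088 and 333 with probes well above background on all 6 arrays, 1934 and 1586 with all 9 arrays in the fit, and 4357 and 5461 with array weights, which were 4.48 for Ctrl2 and 0.244 for Ctrl3. Unnamed probes, 245 and 485, were 394 and 325 under median scaling, 289 and 175 under quantile normalization, 241 and 252 with normexp, 295 and 304 with no filter, 231 and 268 with the strict filter, 482 and 1827 with 9 arrays, and 1223 and 7214 with weights. With the replicate block the counts were 1304 and 1519 for named genes and 305 and 1893 for unnamed probes. Deviations of same-numbered arrays from their group means correlated at -0.268, -0.187 and 0.0228. With 3 arrays per group such deviations constrain each other, so these values do not decide whether the numbers pair the arrays. Leaving out 1 array gave 592 to 2948 named genes higher and 107 to 3459 lower, and 111 to 742 and 85 to 4688 unnamed probes. The causes were not tested. Of 140 called genes named by the rule, 100 kept their call in each alternative that tested them and 40 lost it in at least 1. Of these 40, 39 lost it when an array was left out. Of the 140, 0 changed sign in an alternative. Sign changes of named genes that were not called were not counted. With normexp the differences of 50 of the 140 moved by over 1.5 times, each toward 0, and 4 calls ended; other settings that ended calls were no filter (13), median scaling (6), the replicate block (6), quantile normalization (5), the mean of a gene's probes (3) and the trended, robust prior (1). Requiring all 6 arrays well above background tested 104 of the 140. Of the 198 genes named by the rule and tested, the counts higher and lower in M than in T, 87 and 32, were 77 to 101 and 29 to 36 with 1 array left out. With 3 arrays per group, and fewer probes well above background in M than in Ctrl, falls to background have only a bound.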
